A study of Mus musculus with 208 samples.

Results

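The replication-dependent histone genes of the mouse were followed across every tissue, cross, generation and embryo stage in which their RNA was measured. They were taken as all symbols that begin with Hist1h, Hist2h, Hist3h or Hist4h, apart from Hist1h4m and Hist1h4n. This gave 68 genes of the 47231 names listed in any table. By their symbols, 6 are of the linker histone H1 type, 20 of H2A, 19 of H2B, 12 of H3 and 11 of H4. RefSeq lists Hist1h2aj as a pseudogene, and Hist1h2al and Hist3h2bb-ps as transcribed pseudogenes. The tables do not all list the same names. There were 66 members in the sebaceous gland (SG) and skin tables, 68 in ileum and 62 in liver and embryos.

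All mice were on a C57BL/6 background. Germ-free (GF) mice, which carry no microbes, or their descendants were set against conventionally raised (CR) controls with a normal microbiota, or descendants of these. The study bred its crosses in a conventional facility and reports similar skin and gut microbiota in F1 mice with and without a GF parent. In F1 and F2 samples GF therefore names descent from GF mice and not a germ-free state. SGs, the oil glands of the skin, were laser-captured from fixed skin of parental F0 mice (CR, 3; GF, 3) and of F1 mice (CR, 2; GF, 3). The study names the F1 gland mice as CR×CR and GF×GF offspring in its methods, and elsewhere describes the GF group as born to a GF mother that was colonized with microbes while pregnant. The male parent is named first in each cross. Back skin was taken in F1 from 5 mice of CR×CR, 3 of GF×GF and 3 of GF×CR parents. In F2 it was taken from 5 mice of the CR×CR line, 3 of the GF×GF line and 6 of the GF×CR line. The study describes breeding of these lines both by pairing daughters with new males and by pairing littermates, and which of them gave the skin samples is not given in the sources used here. Ileum and liver came from F1 CR×CR (4 each) and GF×CR (3 each) mice. Single embryos were made by in vitro fertilization and collected at the 4-cell stage (CR×CR, 25; GF×CR, 15; CR×GF, 9; RAG×WT, 21) and at the morula stage (CR×CR, 43; GF×CR, 17; RAG×WT, 28), where RAG×WT denotes Rag2-/- sperm, from mice that lack mature T and B cells, and a wild-type (WT) egg. All other samples were of WT genotype. The labels do not give the parents of each embryo, so that embryos of 1 cross may share them and the p-values then measure only the spread between embryos.

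Replication-dependent histone genes supply the proteins that package newly copied DNA. A nucleosome holds pairs of the core histones H2A, H2B, H3 and H4, and a linker histone H1 sits where the DNA enters and leaves it. The genes lie in clusters, have no introns in their classical form, are transcribed mainly in S phase with the help of the coactivator Npat, and make mRNAs that end in a stem-loop bound by Slbp in place of a poly(A) tail. Some members are also known to give polyadenylated transcripts, chiefly in cells that have left the cell cycle. Variants such as H3.3 are made from separate genes throughout the cell cycle and carry a poly(A) tail.

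The kind of library therefore stands beside every level given here. SG and skin libraries were stranded total RNA after removal of ribosomal RNA, whereas ileum and liver libraries were stranded mRNA selected on poly(A), and embryo cDNA was made from polyadenylated RNA. No tissue was measured by both kinds, so that tissue and library kind cannot be told apart.

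By RefSeq on GRCm38.p6, the Hist1 cluster held 53 placed members on chromosome 13, Hist2 held 10 on chromosome 3 (96219885 to 96270192), Hist3 held 3 on chromosome 11 (58948911 to 58955192) and Hist4 held 1 on chromosome 6. Hist1h2ap matched more than 1 RefSeq gene and was left unplaced. The first placed member of the Hist1 cluster began at 21715711, and Hist1h2al, which RefSeq lists apart as H2af-ps2, lay at 51200084 to 51203066. To show what precedes the genes around which the results turn, 6 sequences are printed, each as 120 bases 5′ to 3′ on the strand of the gene. Capitals mark matches on either strand to the CCAAT box, to the TATA box TATAAA, to the octamer ATTTGCAT, to the H1 box AAACACA and to the H4 element GGTCCG. The reverse complement of the H4 element ends in the bases with which the CCAAT box begins, and both overlap in the window of Hist1h3i.
Hist1h1c (chr13:23738687-23738806, plus strand): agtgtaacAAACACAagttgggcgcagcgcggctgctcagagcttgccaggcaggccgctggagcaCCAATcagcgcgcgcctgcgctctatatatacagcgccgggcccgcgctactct
Hist1h1e (chr13:23622559-23622678, minus strand): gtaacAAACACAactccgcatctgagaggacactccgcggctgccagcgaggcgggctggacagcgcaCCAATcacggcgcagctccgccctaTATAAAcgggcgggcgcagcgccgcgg
Hist3h2a (chr11:58954565-58954684, plus strand): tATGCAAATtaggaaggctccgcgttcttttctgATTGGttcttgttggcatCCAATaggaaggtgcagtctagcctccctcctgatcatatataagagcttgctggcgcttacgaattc
Hist1h3i (chr13:21783398-21783517, minus strand): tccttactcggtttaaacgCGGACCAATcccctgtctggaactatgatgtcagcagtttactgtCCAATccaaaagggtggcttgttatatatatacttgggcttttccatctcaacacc
Hist1h4d (chr13:23581448-23581567, plus strand): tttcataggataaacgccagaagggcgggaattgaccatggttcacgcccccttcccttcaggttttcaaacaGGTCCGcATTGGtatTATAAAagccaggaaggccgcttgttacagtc
Hist1h4i (chr13:22041363-22041482, minus strand): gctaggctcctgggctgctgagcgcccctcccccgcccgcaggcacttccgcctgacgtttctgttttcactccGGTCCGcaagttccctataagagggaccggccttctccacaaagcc

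Within 250 bases before the start, 59 members had a RefSeq window. CCAAT was found in 50 of them (84.7%), against 33.8% of all 32851 windows of the same length, and in each of the 6 H1, 17 H2A and 16 H2B windows. TATAAA was found in 27 (45.8%, against 12.4%). The octamer was found in 7 of 17 H2A and 6 of 16 H2B windows and in no H1, H3 or H4 window (22.03% of members, against 1.60% of all windows). The H1 box was present in 5 of 6 H1 windows (9 members in all, 15.3%, against 6.25%) and the H4 element in 7 of 10 H4 windows (9 members in all, 15.3%, against 6.72%). The printed windows show the pattern for single genes. Both H1 genes carry the H1 box and CCAAT, Hist3h2a carries the octamer and CCAAT on both strands, and Hist1h4d and Hist1h4i carry the H4 element. These are letter matches, and no binding was measured.

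Most listed histone genes were found in every sample of the libraries depleted of ribosomal RNA, and a minority in every sample of the adult poly(A) libraries. At a level of 1 CPM (read counts scaled to 1 common library total) or more in every sample, 53 of 66 members were found in SG of F0, 54 of 66 in SG of F1, and 51 to 53 of 66 in the 4 skin tables. In ileum 12 of 68 and in liver 4 of 62 members met this level in every sample. In at least 1 sample, the level was met by 59 to 61 of 66 members in the SG and skin tables, 29 of 68 in ileum and 15 of 62 in liver, and 9 members in ileum and 21 in liver were at 0 in all samples. In embryos, whose values are TPM (scaled in the same way after division by transcript length), 2 of 62 members reached 1 TPM in all 70 4-cell embryos and 4 of 62 in all 88 morulae, although 60 and 61 did so in at least 1 embryo.

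**Figure D1:**
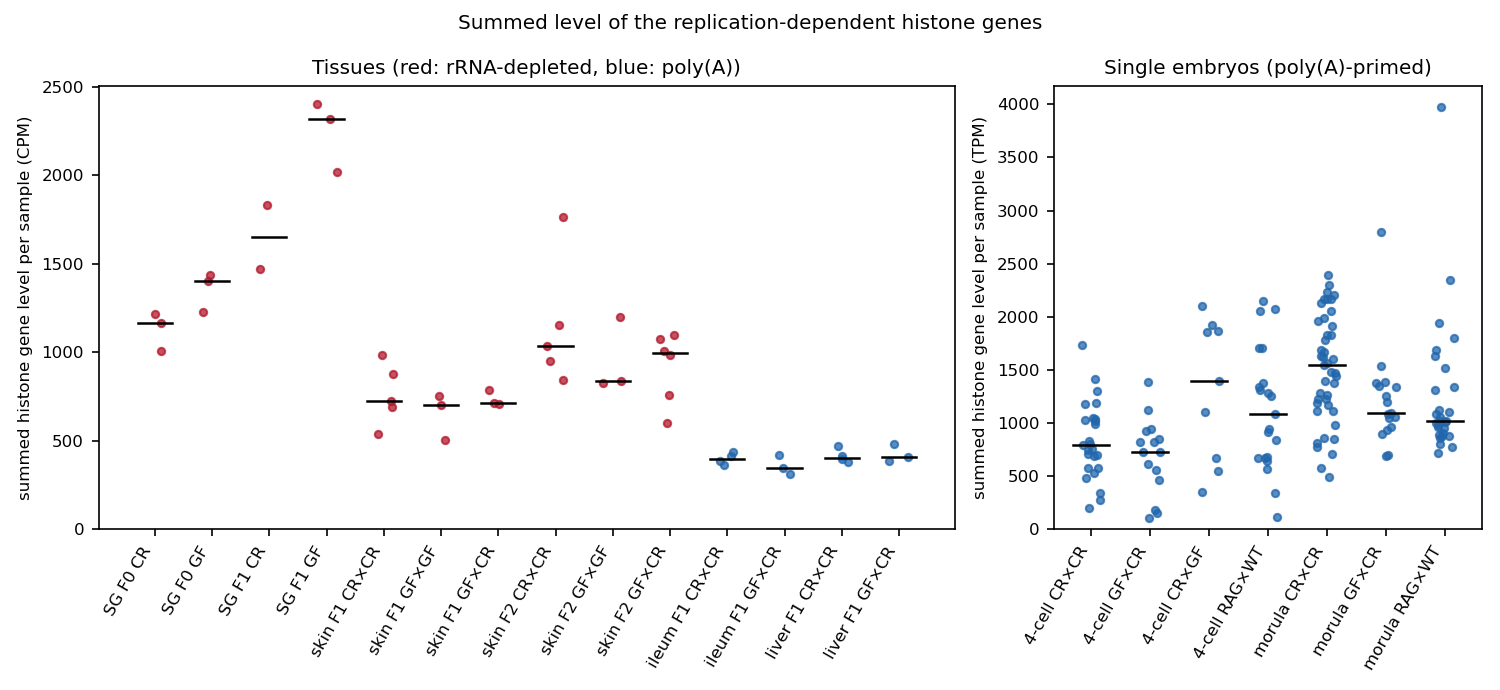
Summed level of the listed members in each sample (points) and the group median (bar), in CPM for tissues (left; red, ribosomal RNA-depleted; blue, poly(A)) and TPM for embryos (right), whose axes differ. SG of F1 mice of GF parents had the highest tissue median (2318), and ileum and liver samples lay between 315 and 480.

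The summed level of the members followed the same split. The median was 1165 CPM in SG of F0 CR mice and 1034 CPM in skin of F2 CR×CR mice, and single samples lay between 361 and 439 CPM in ileum and 382 and 469 CPM in liver of CR×CR mice. Skin of F1 was lower, with medians over all crosses of 716 CPM in the table with GF×GF and 720 CPM in that with GF×CR mice. Its lowest sample, at 502 CPM, lay close to the highest liver sample, at 480 CPM. The plot of summed levels shows each sample. Set against the summed replication-independent variants of the same sample, which include H2afz, H3f3a and H3f3b, the members came to 1.28 times the variant level in SG of F0, 1.81 in SG of F1, 1.42 in skin of F1 (both tables) and 1.89 and 1.77 in the skin tables of F2. The ratio was 0.226 in ileum, 0.627 in liver, 0.175 in 4-cell embryos and 0.259 in morulae.

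**Figure D2:**
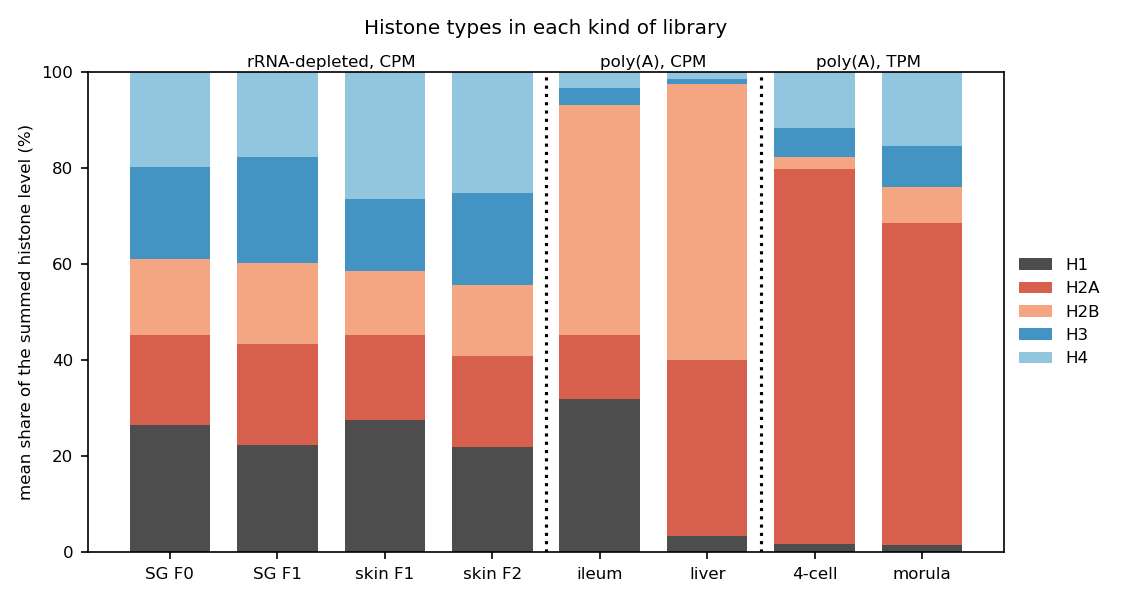
Mean share (%) of the summed histone level taken by H1, H2A, H2B, H3 and H4 genes in each table, with dotted lines between ribosomal RNA-depleted CPM, poly(A) CPM and poly(A) TPM tables. Each type lay between 13.4% and 27.7% in SG and skin, the H2B share was larger in ileum (48.0%) and liver (57.5%) than in those tables, and H2A took 77.9% and 67.1% in embryos. The H2A share of embryos rests mainly on Hist1h2ao.

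The makeup by histone type differed as well. In SG and skin the mean share of each type lay between 13.4% and 27.7% in every table. In ileum H2B took 48.0% and H1 31.96%, with H3 at 3.54% and H4 at 3.29%. In liver H2B took 57.5% and H2A 36.6%, with H3 at 0.997% and H4 at 1.45%. In embryos H2A took 77.9% at the 4-cell stage and 67.1% at the morula stage. Most of this was listed under 1 name, Hist1h2ao, at 688.5 of a mean H2A sum of 774 TPM at the 4-cell stage and 684 of 941 TPM at the morula stage. CPM is not divided by length, so these shares are of reads, and a share of a type was compared between tables and not with another type.

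A pair of genes made up most of the adult poly(A) signal. In liver the 2 highest members of each sample held 92.7% of the summed level, and in ileum 69.1%, against 15.3% to 20.04% in SG and 14.1% to 20.8% in skin. In liver these were Hist1h2bc (235 CPM) and Hist2h2aa2 (153 CPM), followed by Hist1h1c at 13.6 CPM. Hist1h2bc ranged from 191 to 286 CPM and Hist2h2aa2 from 117 to 260 CPM over the 7 livers. In ileum Hist1h2bc (151 CPM) and Hist1h1c (114 CPM) led, followed by Hist1h2be (21.5 CPM). RefSeq gives Hist1h2bc a span of 8282 bases and Hist1h2be one of 37455, against 725 for Hist1h1c, so a level per length is not given for these H2B genes, and the H2B share rests mainly on Hist1h2bc. The highest members of the other types were Hist2h2aa2 (18.3 CPM), Hist2h3c1 (8.0 CPM) and Hist1h4i (5.74 CPM) in ileum, and Hist2h3c1 (3.30 CPM) and Hist1h4h (3.12 CPM) in liver.

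In SG and skin the signal was shared among many genes. Hist1h1c, which encodes the H1 subtype H1.2, had the highest mean CPM, not divided by length, in all 6 tables, at 165 CPM in SG of F0, 162 CPM in SG of F1 and 85.1 to 96.7 CPM in skin. Hist1h1e, the gene of subtype H1.4, followed in SG of F0 (77.4 CPM), and Hist2h2aa1 in SG of F1 (135 CPM). Per kilobase of RefSeq length, SG of F0 had 228 CPM for Hist1h1c, 161 for Hist1h4d, 133 for Hist2h2aa1, 98.9 for Hist1h1e and 68.4 for Hist2h3b. The order in SG of F1 was Hist1h4d (248), Hist2h2aa1 (243), Hist1h1c (223), Hist1h1e (149) and Hist2h3b (144). Hist2h2aa2 was the leading H2A gene in skin (42.4 to 55.4 CPM). Hist1h2bc was the H2B gene with the highest mean in skin and in SG of F0, and Hist1h2bg in SG of F1 (58.5 CPM). Hist2h3b led H3 and Hist1h4d led H4 in all 6 tables.

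Several members have near-identical copies, so their single-gene values are uncertain. Hist2h2aa1 and Hist2h2aa2 form such a pair, as do Hist2h3c1 and Hist2h3c2, and the H2A genes of the Hist1 cluster are closely alike in sequence. Hist1h2ao was listed at 0 or near it in SG, skin, ileum and liver, where no group mean exceeded 0.546 CPM, and was the highest member in embryos, at a mean of 688.5 TPM in 4-cell embryos. Hist1h2ap had 13.4 CPM in SG of F0 CR mice and is 1 of the 6 members that the liver and embryo tables do not list. Whether both names stand for the same reads was not tested. RefSeq gives Hist1h2bq and Hist1h2br the same length, 3788 bases. In the F2 skin table with GF×CR mice they reached 1 CPM in 10 and 1 of 11 samples. In the F1 skin table with GF×GF mice they did so in 5 and 3 of 8 samples, and in SG of F0 both did in all 6. How reads were divided between these names was not tested, so the low skin values of Hist1h2bq are uncertain.

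In SG of F0, 1 of the 57 histone genes tested was higher in GF than in CR mice, and none was lower. Of the 14889 genes tested, 2.2% were called and 0.86% were called higher. Hist1h3i, which encodes the core histone H3, had 9.64, 13.6 and 7.63 CPM in the 3 CR samples and 21.2, 25.5 and 26.01 CPM in the 3 GF samples, with no overlap. The fold change on the log2(CPM + 0.5) scale was 1.23 ± 0.25 (SE), with an adjusted p of 0.0432 from limma with Benjamini-Hochberg adjustment over all genes tested. The call was lost in 5 of the 6 fits that left out 1 mouse (adjusted p between 0.0608 and 0.164) and kept without CR replicate 2 (0.0338), and was also lost with no filter on low values (0.102).

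Around this gene, most histone genes had higher means in GF glands without passing the test. The fitted difference was above 0 for 48 of 57 members, with a median log2 fold change of 0.35 against 0.14 over all genes tested, and 13 members had an unadjusted p under 0.05, all higher (13.8% of all genes were higher at that p). Without CR replicate 1 there were 6 such members and a median of 0.22, without GF replicate 1 there were 6, and without GF replicate 3 there were 8. The H3 genes had a median of 0.58 with 12 of 12 above 0, and the H1 genes 0.45 with 5 of 5. Hist1h1e had 65.3, 63.9 and 69.8 CPM in CR and 90.0, 80.1 and 95.1 CPM in GF samples, at an adjusted p of 0.117 by limma. Hist1h2ap had 9.82, 17.6 and 12.8 CPM in CR and 27.8, 34.6 and 19.6 CPM in GF samples (adjusted p 0.106 by limma), again without overlap. Hist1h1c had 156 to 180 CPM in CR and 156 to 178 CPM in GF samples, which overlapped throughout. The summed level of the members was 1006, 1165 and 1215 CPM in CR and 1404, 1230 and 1438 CPM in GF mice, so that every GF sample lay above every CR sample. Each sample is RNA of many cells, and fewer cells of a type and less RNA per cell cannot be told apart.

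Cell cycle genes were measured in the same samples. Of 30 genes of DNA replication and S phase tested, 1 was called higher and none lower, with a median log2 fold change of 0.55, and of 20 mitosis genes 1 was called higher and none lower, with a median of 0.51. All GF samples lay above all CR samples in both sums. The summed S-phase level was 489 to 611 CPM in CR and 751 to 784 CPM in GF samples, and the summed mitosis level 319 to 445 CPM and 535 to 688 CPM. Markers of dermal fibroblasts (4 of 4 detected in all samples) summed to 3154 to 4940 CPM in CR and 4348 to 8668 CPM in GF samples, and hair matrix and shaft markers to 8.36 to 16.6 CPM and 5.60 to 27.1 CPM. The 6 SG markers were all at 1 CPM or more in every sample, at summed levels of 22947 to 27850 CPM in CR and 20576 to 25514 CPM in GF mice. The part of the cell cycle genes and of the other cell types in the histone values was not tested. None of the 21 tested genes of histone mRNA processing and none of the 9 of histone gene transcription was called by limma, and 3 and 0 of them had an unadjusted p under 0.05.

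**Figure D3:**
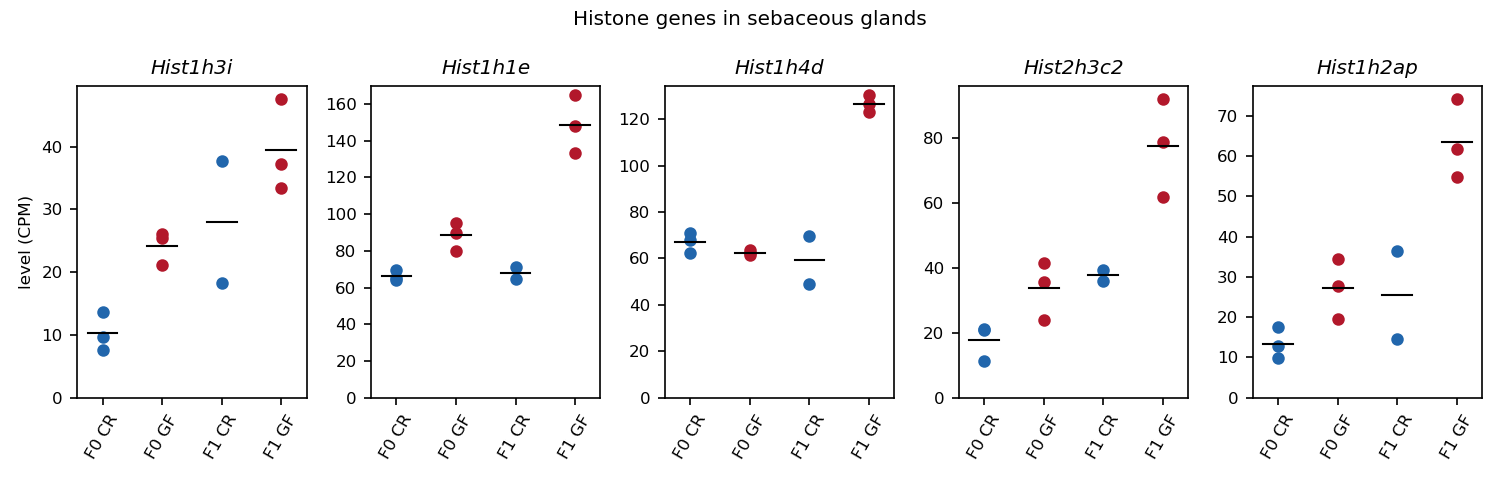
Level (CPM, 1 axis per gene, each starting at 0) of 5 histone genes in SG of F0 and F1 mice; points are mice (CR blue, GF red) and bars are group means. Hist1h3i in F0 and Hist1h1e and Hist1h4d in F1 passed the test, and Hist1h4d overlapped between groups in F0 (62.4 to 71.0 against 61.7 to 63.7 CPM).

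In SG of F1, 2 of the 58 histone genes tested were higher in mice of GF than of CR parents and none was lower, beside 0.717% of the 15058 genes tested in either direction and 0.564% higher. Hist1h1e had 64.7 and 71.0 CPM in the 2 CR samples and 148, 134 and 165 CPM in the 3 GF samples. The log2 fold change was 1.12 ± 0.15 (SE), with an adjusted p of 0.0231 by limma. Hist1h4d had 48.9 and 69.8 CPM in CR and 130, 126 and 123 CPM in GF samples (1.11 ± 0.18, adjusted p 0.0386 by limma). Neither gene overlapped between groups, and both calls were lost when any 1 of the 5 mice was left out, with no filter, and with the replicate number as a block (adjusted p 0.0611 and 0.0682 by limma).

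The other members again lay mostly above 0 in F1 glands. The fitted difference was positive for 48 of 58 members, with a median of 0.35 against -0.03 over all genes, and 17 were higher and 1 lower at an unadjusted p under 0.05 (6.86% and 5.34% of all genes). Without CR replicate 2, 10 were higher and the median was 0.16. By type, the medians were 0.52 for H1 (5 of 5 above 0), 0.53 for H4 (9 of 11), 0.43 for H3 (11 of 12), 0.36 for H2B (12 of 14) and 0.10 for H2A (11 of 16). Hist2h3c2 had 36.1 and 39.2 CPM in CR and 79.0, 61.7 and 92.1 CPM in GF samples, which did not overlap and did not pass the test (adjusted p 0.0784 by limma). Hist1h3i, the gene called in F0, had 37.7 and 18.2 CPM in CR and 47.6, 33.4 and 37.2 CPM in GF samples of F1, where the groups overlapped. The summed level of the members was 1831 and 1468 CPM in CR and 2400, 2020 and 2318 CPM in GF samples, without overlap. The S-phase sums overlapped here, with 0 of 30 called by limma, 1 at an unadjusted p under 0.05, a median of -0.06, and sums of 1083 to 1200 CPM in CR against 967 to 1220 CPM in GF samples. Of 20 mitosis genes 1 was called higher, and their sum was 588 to 600 CPM in CR and 691 to 980 CPM in GF samples. Dermal fibroblast markers summed to 1292 to 1491 CPM in CR and 600 to 1209 CPM in GF samples, and the part of these sums in the histone values was not tested. F0 and F1 glands were normalized in separate tables, and the difference between their effects was not tested.

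In skin, no histone gene passed the test in any of 4 comparisons, with limma on 57 or 58 members each. In F1, GF×GF mice had 4 members lower at an unadjusted p under 0.05 (8.47% of all genes) and a median log2 difference of -0.25, beside -0.20 over all genes tested, of which 0.09% were called. Without GF×GF replicate 3 there were 0 such members and the median was -0.06 by limma, without CR×CR replicate 1 there were 13, and without CR×CR replicate 2, 3 or 4 there were 2. The members with the smallest p were both H2A genes. Hist1h2ak had 3.16 to 6.86 CPM in 5 CR×CR mice and 3.49, 3.36 and 1.93 CPM in GF×GF mice (adjusted p 0.539 by limma). Hist1h2ai had 3.46 to 8.46 CPM and 3.81, 4.09 and 1.95 CPM (adjusted p 0.542 by limma), and the groups overlapped for both. F1 GF×CR mice had no member at an unadjusted p under 0.05 and a median of -0.02, beside -0.08 over all genes, of which 0.0537% were called and 7.08% had such a p. The smallest p belonged to Hist2h2aa1, with 13.6 to 35.9 CPM in CR×CR and 20.8, 8.79 and 16.3 CPM in GF×CR mice (adjusted p 0.742 by limma), and to Hist1h2bp, with 0.613 to 1.98 CPM and 1.37, 1.65 and 2.26 CPM (adjusted p 0.775 by limma). Both genes overlapped. The GF×GF and GF×CR comparisons share their CR×CR mice in each generation.

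In F2 skin most fitted differences were below 0, and none passed the test. F2 GF×GF mice had 0 of 57 members called by limma and 2 lower at an unadjusted p under 0.05 (0.848% of all genes), a median of -0.31 against 0.00 over all genes, and a background of 0.0418%. Without GF×GF replicate 2 there were 11 lower at that p and a median of -0.53. Without CR×CR replicate 1, CR×CR replicate 3 or GF×GF replicate 3 there was 1, at medians of -0.12, -0.26 and -0.14, and the median was -0.19 without GF×GF replicate 1. F2 GF×CR mice had 0 called by limma beside a background of 0%, with 9 lower at an unadjusted p under 0.05 (0.803% of all genes were lower) and a median of -0.35 against 0.02, and the difference was below 0 for 54 of 57 members. Hist1h2ap had 30.3, 22.3, 26.7, 13.3 and 16.5 CPM in CR×CR mice and a lowest, median and highest value of 7.78, 12.9 and 18.5 CPM in GF×CR mice, and the groups overlapped. Hist1h2bq, an H2B gene, had 4.31 to 7.96 CPM in CR×CR mice and 0.159 to 4.33 CPM in GF×CR mice, with adjusted p of 1.0 by limma for both genes. In the GF×GF table the smallest p belonged to Hist1h4i (5.43 to 9.43 CPM in CR×CR, and 4.39, 4.95 and 3.18 CPM in GF×GF mice), which did not overlap, and to Hist1h2bq (4.19 to 7.75 CPM, and 3.04, 5.68 and 0.359 CPM), which did. Adjusted p was 1.0 by limma for both.

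A single CR×CR mouse weighed on these F2 values. Replicate 1 had a summed level of 1766 CPM, against 842 to 1155 CPM in the other 4 CR×CR mice and 601 to 1099 CPM in the GF×CR mice, and it also had the highest mitosis sum (726 CPM, against 378 to 499 CPM in the other CR×CR mice). Without it, 1 member in place of 9 was lower at an unadjusted p under 0.05 and the median was -0.19. Leaving out GF×CR replicate 4 gave 2 such members, leaving out GF×CR replicate 6 gave 3, and leaving out CR×CR replicate 4 gave 17. Scaling by the median ratio gave 24. The mitosis genes had a median of -0.31 and the S-phase genes -0.14 in this comparison, with none of either called by limma and 4 and 1 of them lower at an unadjusted p under 0.05.

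In ileum and liver of F1 mice no member passed the test between GF×CR and CR×CR, and none had an unadjusted p under 0.05 by limma (4.5% of all genes in ileum and 15.8% in liver did). In ileum 17 members were tested, with a median of -0.23 against -0.08 over all genes and a background of 0%. Hist1h4i had 5.28, 3.86, 14.999 and 5.61 CPM in CR×CR and 2.56, 2.32 and 5.55 CPM in GF×CR mice (adjusted p 0.943 by limma), and 1 CR×CR mouse stood above the rest. Hist1h3d had 1.76, 0.850, 1.86 and 2.20 CPM against 0.763, 0 and 1.44 CPM (adjusted p 0.943 by limma). Both genes overlapped between the crosses. B cell markers ranged from 6.41 to 776 CPM among CR×CR and 16.98 to 630 CPM among GF×CR ilea, and their part in these values was not tested.

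In liver 9 members were tested, with a median of -0.15 against -0.02 and a background of 0.0343%. Hist1h2bc, the leading liver member, had 191, 221, 240 and 214 CPM in CR×CR and 286, 241 and 253 CPM in GF×CR mice. The 3 GF×CR livers lay just above the 4 CR×CR livers, at an adjusted p of 0.482 by limma. Hist1h4i had 1.47, 1.07, 1.48 and 1.12 CPM in CR×CR and 0.942, 0.342 and 0 CPM in GF×CR livers (adjusted p 0.343 by limma), with no overlap at a level close to the filter. Hist2h2aa2 overlapped (120 to 260 CPM against 117 to 154 CPM).

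Between the 4-cell stage and the morula, most of the histone genes tested were higher in morulae in each of the 3 crosses measured at both stages. Few of the members tested would have passed the filter on their 4-cell values alone. In CR×CR embryos 26 of the 29 members tested were higher in morulae and none was lower, beside 41.6% of the 10485 genes tested higher and 69.1% called in either direction. The median log2 difference was 1.81 over these members and 0.23 over all genes tested. GF×CR embryos had 10 of 16 members higher (24.4% of all genes; 52.2% in either direction) and a median of 1.99, and RAG×WT embryos had 13 of 21 higher (32%; 62.8% in either direction) and a median of 1.24, with none lower. The filter counted the embryos of both stages together. Of the members tested, 3 of 29, 2 of 16 and 2 of 21 would have passed it within the 4-cell embryos alone. Within the morulae alone, 23, 8 and 18 would have passed. The morula values thus had a part in which members were tested, and these counts and medians are a description. With no filter, 44 of 61, 23 of 59 and 28 of 61 members were higher and none was lower, beside 43.2%, 34% and 37.9% of all genes called in either direction. In GF×CR the share of members called in either direction without a filter was close to that of all genes. The share of all genes called higher without a filter was not counted.

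The largest fitted differences belonged to an H4 gene and to H2A and H2B genes that were at 0 in most 4-cell embryos. Hist1h4i, which encodes H4, was listed at 0 in 18 of 25 CR×CR 4-cell embryos (median 0, highest 21.8 TPM) and had a lowest, median and highest value of 6.10, 54.8 and 126 TPM in the 43 morulae. The difference was 5.64 ± 0.33 (SE). Hist3h2a, an H2A gene of the Hist3 cluster, was listed at 0 in 23 of 25 4-cell embryos and had a median of 21.3 TPM in morulae (4.6 ± 0.39). Its neighbour Hist3h2ba, an H2B gene, was at 0 in 24 of 25 and had a median of 8.14 TPM (3.5 ± 0.42). Most 4-cell embryos were thus at 0 for these genes and most morulae were not, with overlap left by the few 4-cell embryos above 0 and by the 4 and 8 morulae at 0 for Hist3h2a and Hist3h2ba.

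Hist1h2bc, the H2B gene that led in ileum and liver, was at 0 in 14 of 25 CR×CR 4-cell embryos (highest 55.3 TPM) and had a median of 48.4 and a highest value of 310 TPM in morulae, a difference of 4.47 ± 0.47. The difference was 4.56 ± 0.52 for Hist1h2ag (medians 0 and 36.3 TPM) and 3.22 ± 0.41 for Hist1h2bk (0 and 8.47 TPM). In GF×CR embryos the same genes gave 3.52 for Hist1h2bc, 4.11 for Hist1h2ag, 2.42 for Hist1h2bk, 4.4 for Hist3h2a and 3.72 for Hist1h4i, and Hist1h2ae gave 2.74. In RAG×WT embryos Hist1h4i and Hist3h2a both gave 4.47, Hist1h2ag 4.22, Hist1h2bc 3.62 and the H3 gene Hist1h3c 2.54, and Hist3h2ba, at 0 in all 21 4-cell embryos, gave 3.21. No p is given for these differences, since most of these genes would not have been tested on their 4-cell values alone. Since most 4-cell values were 0, these fitted differences depend on the added 0.5 and are no fold bound.

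Other members were already present in every CR×CR 4-cell embryo. Hist1h2ae, an H2A gene, went from a lowest, median and highest value of 5.73, 45.0 and 149 TPM to 20.9, 173 and 431 TPM in CR×CR embryos (1.67 ± 0.22, adjusted p 3.29e-10 by limma), and Hist1h4d from 11.01, 57.8 and 208 TPM to 24.7, 138 and 356 TPM (1.16 ± 0.23, adjusted p 1.02e-05 by limma). Both ranges overlapped between stages. Hist1h2ao, the highest member at either stage, did not pass the test in any cross. Its median was 553 TPM in CR×CR 4-cell embryos and 705 TPM in morulae (0.26 ± 0.19), and the differences were 0.65 ± 0.40 in GF×CR and -0.11 ± 0.26 in RAG×WT. Hist1h1a and Hist1h1e, both H1 genes, were the other tested members not called in CR×CR (adjusted p 0.442 and 0.124 by limma).

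**Figure D4:**
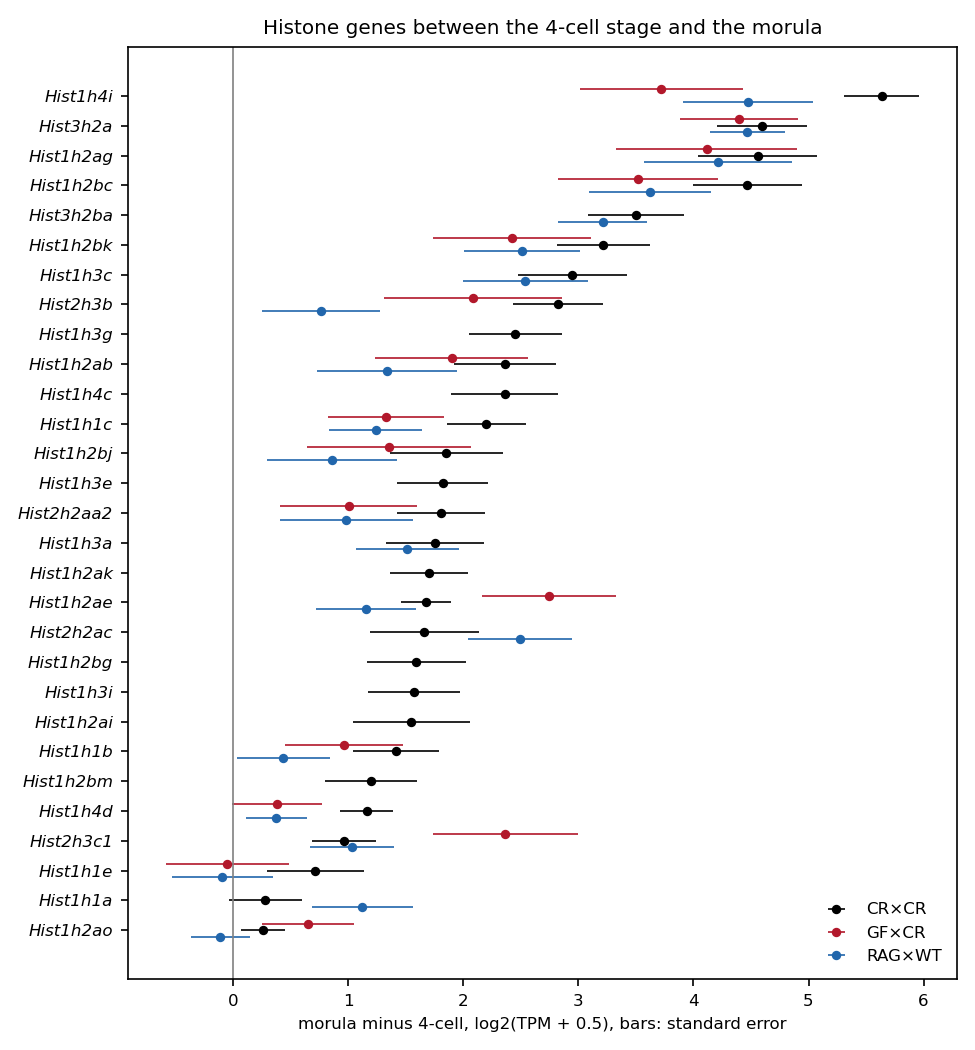
Morula minus 4-cell difference on the log2(TPM + 0.5) scale for the 29 members tested in CR×CR embryos (black), with GF×CR (red) and RAG×WT (blue) where tested; bars are standard errors. Hist1h4i, Hist3h2a, Hist1h2ag and Hist1h2bc stood above 3 in every cross, and Hist1h2ao lay close to 0.

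The members called in all 3 crosses were Hist1h1c, Hist1h2ae, Hist1h2ag, Hist1h2bc, Hist1h2bk, Hist1h4i, Hist2h3c1 and Hist3h2a, which is 8 of the 16 tested in all 3. In each cross alone 52.2% to 69.1% of all genes were called, and the share called in all 3 was not counted. The count of members is again a description. The mean over embryos was higher in morulae for 60 of 62 listed members in CR×CR, 53 in GF×CR and 50 in RAG×WT, and lower for 1, 6 and 11. The share of all genes with a higher mean in morulae was not counted. Detection differed too, with a mean of 9235 genes at 1 TPM or more per 4-cell embryo and 9901 per morula over all crosses. A median above 0 was found for 8 to 10 members in the 4-cell groups and for 25 to 33 in the morula groups. The highest member of each embryo held a mean of 69.03% of the summed level at the 4-cell stage and 48.6% at the morula stage. The median of the summed level was 797 TPM in CR×CR 4-cell embryos (lowest 200, highest 1737) and 1548 TPM in CR×CR morulae (496 to 2395), and the ranges overlapped. The embryos fell into 2 sets, which differed in the gene names under which their values were listed, and with set as a covariate 26 members were again higher in CR×CR. With the number of genes detected per embryo as a covariate, 24 of 29, 10 of 16 and 11 of 21 members were higher, beside 64.9%, 57.7% and 55.3% of all genes called in either direction.

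Genes that serve histone mRNAs and the cell cycle changed in both directions. In CR×CR embryos 15 of 20 mitosis genes were lower and 2 higher in morulae, and 15 of 30 S-phase genes were higher and 9 lower. Of 9 histone gene transcription genes, which include Npat, 5 were lower and 1 higher, and of 20 histone mRNA processing genes 5 were higher and 4 lower. The replication-independent variants split 4 higher and 3 lower of 10, and the histone chaperones 6 and 6 of 16. In GF×CR embryos the mitosis genes split 0 higher and 14 lower of 20, and in RAG×WT 1 and 12.

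At the 4-cell stage no member passed the test in any cross against CR×CR, by limma. GF×CR embryos had 2 of 11 tested members lower at an unadjusted p under 0.05 and a median of -0.44, CR×GF embryos 2 of 17 higher and a median of 0.44, and RAG×WT embryos 0 of 8 and a median of 0.43. The share of all genes called was 0.0102%, 0.337% and 5.53%, and 3.59% were lower, 6.41% higher and 21.8% in either direction at an unadjusted p under 0.05. The 3 comparisons share their CR×CR embryos. Hist2h3c1, an H3 gene, had a lowest, median and highest value of 0, 24.1 and 71.2 TPM in CR×CR and 0, 22.4 and 34.8 TPM in GF×CR embryos (-1.71 ± 0.60, adjusted p 0.906 by limma). Hist1h1b, which encodes H1.5, had 0, 5.86 and 24.8 TPM in CR×CR and 1.38, 14.4 and 34.5 TPM in the 9 CR×GF embryos (1.70 ± 0.64, adjusted p 0.291 by limma). The ranges overlapped for both genes. Next in order of p were Hist1h2ae in GF×CR (-1.31 ± 0.52, adjusted p 0.954 by limma) and Hist2h3b in CR×GF (1.79 ± 0.78, adjusted p 0.364 by limma). In RAG×WT, the smallest p belonged to Hist2h3b (means of 10.1 and 16.9 TPM, adjusted p 0.312 by limma) and Hist1h1b (5.39 and 10.5 TPM, adjusted p 0.387 by limma), which also overlapped.

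The embryo sets were not evenly spread over the crosses. Of 25 CR×CR 4-cell embryos 19 were of the first set and 6 of the second, whereas GF×CR and CR×GF embryos were all of the first and RAG×WT all of the second. The median summed histone level of CR×CR 4-cell embryos was 706 TPM in the first set and 1110 TPM in the second. Within a set, Hist2h3c1 differed by -1.48 in GF×CR and Hist1h1b by 2.02 in CR×GF embryos, and no member was called in any of the 3 comparisons by limma, with 2, 2 and 4 members at an unadjusted p under 0.05. These fits tested 8, 13 and 26 members, and 0.0107%, 0.128% and 0% of all genes were called in them. The share of all genes at such an unadjusted p within a set was not counted. For RAG×WT the median was -0.36 over the 26 members tested within the set. That median and the 0.43 of the fit with all embryos, which tested 8 members, cover different genes and are not compared.

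In morulae, 6 of 47 tested members were lower and 1 was higher in GF×CR than in CR×CR embryos, beside 27.3% of all genes lower, 2.92% higher and 30.2% called in all. The median over the members was -0.30 and that over all genes tested -0.32. The filter counted the embryos of both crosses together and asked for 17 embryos, the size of the GF×CR group. Of the 47 members, 36 would have passed it within the CR×CR morulae alone and 4 within the GF×CR morulae alone. The CR×CR values thus had the larger part in which members were tested, and these counts are a description. With no filter 3 members were called, all lower, beside 14.4% of all genes. Hist1h4d had a lowest, median and highest value of 24.7, 138 and 356 TPM in CR×CR and 16.9, 91.3 and 233 TPM in GF×CR morulae (-0.89 ± 0.25, adjusted p 0.0061 by limma). Hist1h1b had 0, 8.74 and 59.8 TPM against 0, 4.01 and 19.2 TPM (-1.22 ± 0.38, adjusted p 0.0123 by limma). Ranges overlapped throughout. Hist2h3b (-1.17), Hist1h3g (-1.40), both H3 genes, and Hist1h2ab (-1.25) and Hist2h2ac (-1.32), both H2A genes, were also lower, with adjusted p between 0.0243 and 0.0462 by limma. The H2B gene Hist1h2bf was higher (1.18, adjusted p 0.0489 by limma), though it was at 0 in 34 of 43 CR×CR and 9 of 17 GF×CR morulae.

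**Figure D5:**
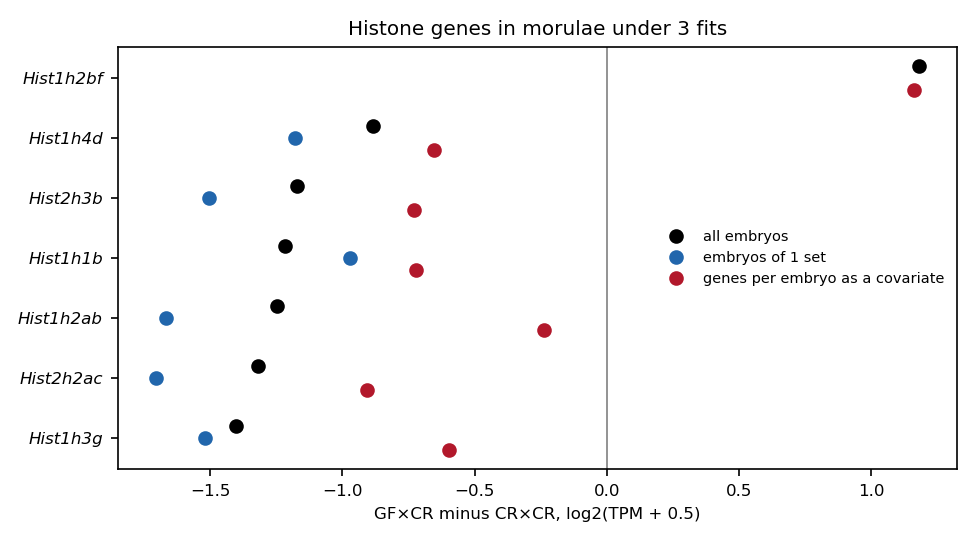
GF×CR minus CR×CR difference on the log2(TPM + 0.5) scale in morulae for the 7 members called, with all embryos (black), embryos of 1 set (blue) and the number of genes detected per embryo as a covariate (red). Every lower member stayed below 0, and none was called with the covariate; Hist1h2bf was not tested within 1 set.

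The morula calls were lost when the number of genes detected per embryo was a covariate. That number differed between the crosses, so cross and detection cannot be told apart by this fit. GF×CR morulae had a median of 9263 genes at 1 TPM or more, against 10191 in CR×CR. With that number as a covariate no member was called by limma, 3 of 47 had an unadjusted p under 0.05, the median over the members was 0.02, and 0.018% of all genes were called. The CR×CR morulae were 21 of the first set and 22 of the second, and GF×CR morulae were all of the first. Within the first set 5 of 29 members were lower, namely Hist1h4d (-1.18, adjusted p 0.0047 by limma), Hist1h2bc (-1.99, 0.0169), Hist1h2ab (-1.67), Hist2h2ac (-1.71) and Hist1h1c (-1.21), beside 12.9% of all genes called, and 3 of them were among the 7 above. The summed level had a median of 1548 TPM in CR×CR (1632 and 1412 TPM in the first and second set) and 1091 TPM in GF×CR morulae (691 to 2796), with overlap.

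In RAG×WT morulae 1 of 35 tested members was lower and none higher, beside 2.68% of all genes called and 1.3% lower. Of these 35 members, 21 would have passed the filter within the CR×CR morulae alone and 6 within the RAG×WT morulae alone, so this count too is a description. Hist1h2ae had a lowest, median and highest value of 20.9, 173 and 431 TPM in CR×CR and 32.6, 65.5 and 286 TPM in RAG×WT morulae (-1.03 ± 0.20, adjusted p 0.0020 by limma), which overlapped. RAG×WT morulae were all of the second set, and within it the difference was -0.98 at an adjusted p of 0.12 by limma. Of 32 members tested there none was called, beside 0.029% of all genes. An unadjusted p under 0.05 was found for 4 members, and the share of all genes at that p was not counted. Hist1h2ae was -0.24 ± 0.23 in GF×CR against the same CR×CR morulae (adjusted p 0.442 by limma). The summed level had a median of 1019 TPM in RAG×WT morulae (715 to 3979), again overlapping.

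Whether the effect of a cross differed between the stages was tested directly. For GF×CR none of 52 members was called by limma (3 higher and 3 lower at an unadjusted p under 0.05), beside 0.23% of all genes called and 3.73% and 12.9% at such a p. The smallest p belonged to Hist1h4i (-1.92 ± 0.69, adjusted p 0.144 by limma) and Hist2h3c1 (1.4 ± 0.60, adjusted p 0.215 by limma). For RAG×WT none of 49 members was called by limma (2 lower at an unadjusted p under 0.05), beside 0.642% of all genes called and 10.6% lower at such a p. The smallest p belonged to Hist2h3b (-2.06 ± 0.65, adjusted p 0.0937 by limma) and Hist1h4d (-0.79 ± 0.36, adjusted p 0.282 by limma).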

How the data were processed

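RNA-seq values of 208 mouse samples in 10 tables were used as deposited. For SG, skin and ileum the authors pseudoaligned reads with Kallisto to Ensembl transcripts and scaled them to CPM in R 4.2. For liver the authors used RSEM. The study's methods name TPM for liver, whereas the deposited values fell on steps of equal size across genes in 92.6% to 94.2% of low values (tolerance 0.01 of a step), and they were read as CPM. For single embryos the authors used RSEM on mm10, and the deposited values, which sum to the same total in each embryo, are TPM in a table named CPM. The versions of Kallisto and RSEM are not given in the sources used here. Depth was estimated from the smallest steps of the CPM values, in units of 1000000 reads. It came to 3.74 to 4.75 in SG of F0, 5.95 to 18.3 in SG of F1, 11.3 to 24.7 in skin of F1, 15.2 to 23.7 in skin of F2, 2.59 to 14.2 in ileum and 3.41 to 7.26 in liver. Of low values, 8.05% to 12.9% lay on whole steps in SG of F0, 7.20% to 14.3% in SG of F1, 5.65% to 23.1% in skin and 57.9% to 72.2% in ileum. Outside liver these depths are therefore rough. The study's methods also name scaling by the trimmed mean of M-values for these tissues. Depth is unknown for embryos.

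Each comparison was fitted with limma 3.58.1 (R 4.3.3, trended variance) on log2(value + 0.5), over genes whose number of samples at or above 1 was no less than the size of the smaller group. Tests were two-sided, p-values were adjusted by the Benjamini-Hochberg method over all genes tested, and a call is an adjusted p under 0.05. Fold changes on this scale understate the change of low genes. Embryo comparisons were repeated within 1 set of embryos and with the number of genes detected per embryo as a covariate. The fits were tested on simulated data, with changes placed in genes of higher level. Changes of 2-fold were recovered for 15% of genes in ileum, 37% in SG of F0 and 52% in GF×CR skin of F2. In GF×CR morulae 78% were recovered, and between stages in CR×CR 80%. Changes of 4-fold were recovered for 57% in ileum and 83% to 99% in the others. False calls made up 1.4% to 8.3% of calls. In ileum all 3 same-numbered pairs deviated together (r from 0.212 to 0.273). Of the 3 GF×CR ilea, 2 were most like the CR×CR ileum of their own number. A pairing by replicate number is inferred from these data and is uncertain. In ileum the replicate block changed no call.

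In each comparison the text names the members past the threshold, up to 6 per direction by size of change, or the 2 of smallest p where none passed, and in each table the 3 highest members and the highest of each type. Other members are named where a plot, a pair of copies or a second comparison of the same gene turns on them. Members, gene lists and tests were chosen with earlier results of these data known. Names altered by a spreadsheet into dates (27) were left out. Promoter windows are from RefSeq, GRCm38.p6, whose gene table matched 67 of the 68 members to 1 gene.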

Additional observations from a re-analysis of the deposited data

Results flagged for a closer look

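Single samples stood apart from their group in 5 of the 64 groups and values examined, by the gap to the nearest sample as a share of the range, and chance gives about 1 in 20. In ileum, CR×CR replicate 3 had a summed H4 level of 24.8 CPM (others 10.3 to 11.5 CPM) and a Hist1h4i level of 14.999 CPM (others 3.86 to 5.61 CPM). Among the 9 CR×GF 4-cell embryos, replicate 9 had a summed H1 level of 52.7 TPM (others 5.1 to 29.2 TPM), replicate 4 a summed H2B level of 89.1 TPM (others 0 to 42.7 TPM) and replicate 2 a summed H3 level of 161.9 TPM (others 35.8 to 91.6 TPM).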

How the results depend on the processing

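The SG calls were the least stable. In SG of F0 the number of members called was 0 with no filter or median ratio scaling, and 0 to 1 when 1 mouse was left out. In SG of F1 it was 0 with no filter, 0 with the replicate block and 0 whichever mouse was left out. The median log2 difference ranged from -0.43 to -0.092 in ileum and from -0.16 to 0.17 in liver when 1 mouse was left out, and was 0.27 in liver with a filter at 5. In GF×CR morulae the number called was 3 with no filter, 4 with median ratio scaling, 3 with the replicate block and 0 with genes per embryo as a covariate. In RAG×WT morulae it was 2 with a filter at 5, 6 with the block and 0 within 1 set. Between stages in CR×CR it was 44 with no filter, 17 with a filter at 5 and 15 with the block, at medians of 2.88 with a pseudocount of 0.1, 1.19 with no filter and 2.36 with a filter at 5. In GF×CR it was 23, at a median of 1.00, with no filter. In RAG×WT it was 28 with no filter and 8 with a filter at 5, and the median was 2.12 with a pseudocount of 0.1. The medians of the difference between stage effects were -0.15 with genes per embryo as a covariate for GF×CR and -0.069 within 1 set for RAG×WT. Median ratio scaling moved the median over all genes from 0.14 to 0.01 in SG of F0 (members 0.35 to 0.24, with 5 in place of 13 at an unadjusted p under 0.05), from -0.20 to 0.01 in GF×GF skin of F1 (members -0.25 to -0.04), from 0.17 to 0.05 in RAG×WT 4-cell embryos, from -0.32 to -0.17 in GF×CR morulae, and between stages from 0.23 to 0.36 in CR×CR, -0.06 to 0.13 in GF×CR and 0.04 to 0.25 in RAG×WT. Fewer genes or samples enter the stricter filter, the block and the 1-set fits, and the cause of the other shifts was not tested.

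Apart from ileum, equal replicate numbers were treated as only shared names. Single pairs reached an r of 0.389 in GF×GF skin of F1 (median 0.078) and 0.476 in GF×CR 4-cell embryos (median 0.0018). Between stages the block gave 9 calls in GF×CR, all among the 10, and 10 in RAG×WT, of which 9 were among the 13. It changed no other call beyond those given. No paired analysis was possible for the differences between stage effects because 4-cell embryos and morulae are different embryos. No embryo had under 50% of its stage's median number of genes, so the fit without such embryos was not run. Near-identical copies, 2 or 3 mice in many groups, unknown parents of embryos and a library kind bound to tissue limit these values.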

Other observations

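Across the 70 4-cell embryos, the genes whose level was most like the summed histone level by Spearman correlation were Lamtor1 (0.49), Gemin7 (0.49), 1810032O08Rik (0.48), Sgta (0.44) and Stk11 (0.43), of 9013 genes ranked. Across the 88 morulae they were 2210409E12Rik (0.47), Bola1 (0.47), Luc7l3 (0.46), Uqcrfs1 (0.45) and Nudcd3 (0.45), of 9789 genes. The values of 1 embryo share a library and a total, and the crosses were pooled. The correlation of the summed level with the number of genes detected per embryo was 0.049 at the 4-cell stage and -0.097 at the morula stage.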
